A study of Mus musculus with 12 samples.

Results

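The 42 genes described here serve protein folding and the responses to misfolded protein and to limited translation, and they were followed in mouse endometrial epithelial organoids with or without the estrogen receptor gene Esr1. They were listed by name with earlier results of these data known, so shares set beside those of all genes are a description. All 42 were found among the 26264 genes listed in the deposited counts. All passed the filter on low counts that left 16465 genes to test. For this description they were split by role into 14 chaperones and folding enzymes of the endoplasmic reticulum (ER) lumen, 5 sensors and transcription factors of the unfolded protein response (UPR), 6 genes of the integrated stress response, 5 genes of ER-associated degradation (ERAD), 9 cytosolic heat shock genes and 3 small heat shock proteins.

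The organoids, which are cultures of the epithelium that lines the uterus, were Esr1 knockout (KO) given estrogen, KO given no estrogen, wild type (WT) given estrogen and WT given no estrogen, with 3 libraries in each of these 4 groups. All came from passage 3 cultures grown from epithelium that trypsin had freed from mouse uteri, embedded in Cultrex and kept in expansion medium. The labels do not give the dose or duration of estrogen, how Esr1 was deleted, the age of the donors for each library, or whether libraries of a group came from separate animals, so p-values measure only the spread between these libraries. The submitters state of this treatment that organoids of neither genotype responded to it.

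Secreted and membrane proteins fold in the ER with the help of chaperones, and the UPR adjusts this capacity through the sensors IRE1, PERK and ATF6. IRE1 splices the Xbp1 mRNA, ATF6 is cut to release a transcription factor, and both outputs act on genes of folding and degradation, while PERK phosphorylates the translation factor eIF2 and so favours translation of Atf4, the step shared with the other branches of the integrated stress response. The cytosolic heat shock response runs separately, through the transcription factor HSF1. In a secretory epithelium such as the uterine lining, ER folding capacity generally goes with the amount of protein exported.

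Library totals ran from 75654191 to 108665407 counted reads. Levels are counts per 1e+06 counted reads (CPM), normalised with TMM, the trimmed mean of M values, and errors of levels are SD over 3 libraries. Esr1 averaged 19.7 ± 0.510 CPM in KO against 318 ± 33.5 CPM in WT with estrogen, and 16.4 ± 0.402 against 308 ± 50.2 CPM without estrogen (n = 3 each). The first principal component held 92.3% of the variance and set the genotypes apart. Epithelial identity was present in every group, with Epcam at 749 and 653 CPM in KO and 1156 and 1067 CPM in WT, with and without estrogen in that order. The means of Krt8 (642 and 703 against 521 and 490 CPM) and Krt19 (683 and 625 against 383 and 424 CPM) were higher in KO. Of the 5 epithelial markers, 2 were called lower in KO in both treatments, 0 higher and 3 not called in both (edgeR). Hoxa10 and Hoxa11, which pattern the uterus and were listed here with the stromal markers, had at most 4 reads over the 3 libraries of any group. Markers of other epithelial states moved with the genotype and so with every comparison below. Of the basal and squamous markers all 7 of 7, and of the multiciliated markers all 5 of 5, were higher in KO in both treatments. The summed basal and squamous markers ran from 6405 to 16321 CPM in KO with estrogen against 28.7 to 134 CPM in WT, and without estrogen from 8900.4 to 14995 CPM in KO against 38.0 to 86.4 CPM in WT. The summed multiciliated markers ran from 514 to 789 CPM in KO with estrogen against 3.17 to 3.61 CPM in WT, and without estrogen from 606 to 936 CPM in KO against 2.98 to 3.68 CPM in WT. The basal keratin Krt14 had 0 reads in WT with estrogen. Of 4 tested immune markers 3 were lower in KO, where Ptprc and Csf1r, which mark leukocytes and macrophages, were near 0. With and without estrogen, Ptprc averaged 0.0121 and 0 CPM in KO against 5.46 and 6.41 CPM in WT, Csf1r 0.163 and 0.309 against 36.9 and 31.3 CPM, and Cd68 147 and 111 against 332 and 282 CPM. Stromal markers were near 0, with Col1a1 between 0.234 and 0.747 CPM over the group means, and of the 5 that could be tested 0 were called in both treatments by edgeR. The part of these cell states in the differences below was not tested, and in bulk RNA fewer cells of a type and less RNA per cell cannot be told apart.

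Comparing KO with WT asks how loss of Esr1 goes with the level of these genes. The ER side of the set was lower in KO almost throughout, whereas the cytosolic heat shock genes went both ways. With estrogen, 10 members were higher and 27 lower in KO (edgeR quasi-likelihood test, Benjamini-Hochberg adjusted p under 0.05 over all genes tested), beside 36.7% of all tested genes higher and 34.1% lower, 70.8% in all. Without estrogen the counts were again 10 higher and 27 lower, beside 37.7% and 34% of all genes, 71.7% in all. A member passing in both treatments in 1 direction was taken as called for genotype from here on, and these were 10 higher (23.8% of the 42) and 26 lower (61.9%), against 34.1% and 30.8% of all genes. The 6 KO libraries lay fully above the 6 WT libraries in 10 members and fully below them in 26, 36 in all, and 65% of all genes were apart in either direction. In 5 members that were higher and 10 that were lower the difference was 2-fold or more under both treatments, against 24.4% and 11.2% of all genes. The median log2 fold change of the 42 members was -0.59 with estrogen and -0.63 without, against 0.02 and 0.04 for all genes tested.

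**Figure D1:**
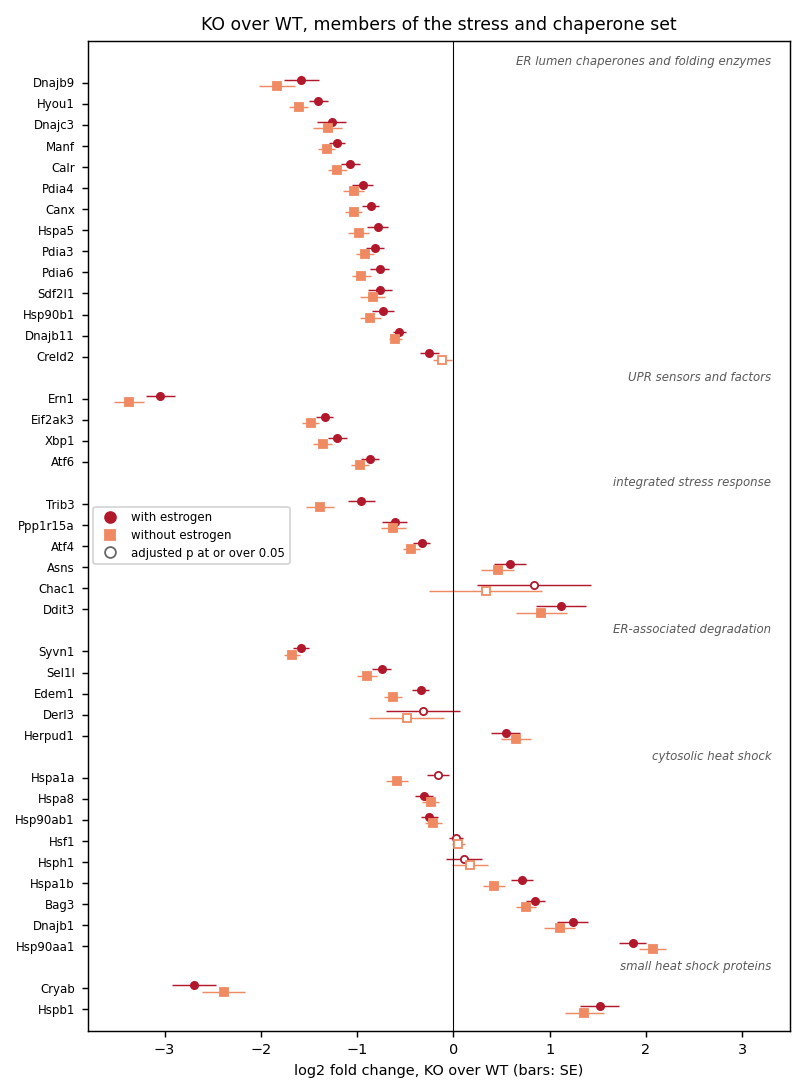
Log2 fold change of KO over WT (horizontal axis) for 40 members in rows grouped by role, with estrogen (circles) and without (squares), bars showing the SE and open symbols an adjusted p at or over 0.05. The 14 ER lumen genes all lie left of 0, Ern1 lies farthest left at -3.04 and -3.37, and Hsp90aa1 farthest right at 1.86 and 2.07. Ern2 and Hspb8, whose WT libraries held few reads, are left out for scale.

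The plot of log2 fold changes shows the split by role. Of the 14 ER lumen genes, 13 (92.9%) were lower in KO and 0 higher. Among the 5 sensors and factors 4 were lower and 1 higher, among the 6 integrated stress genes 3 lower and 2 higher, and among the 5 ERAD genes 3 lower and 1 higher. Of the 9 cytosolic heat shock genes, 2 were lower and 4 (44.4%) higher, beside 34.1% of all genes higher. Among the 3 small heat shock proteins 2 were higher and 1 lower. Most members were measured on many reads, and their coefficient of variation over replicates had a median between 6.99% and 10.6% in the 4 groups. With library size as the only scaling, the median of all genes moved by 0.185 with and 0.226 without estrogen on the log2 scale and gave 63.1% and 65.5% of called genes as higher in KO, in place of 51.8% and 52.5%. The members then split into 11 higher and 22 lower, with Atf4, Edem1, Hspa8 and Hsp90ab1 no longer called and the heat shock factor gene Hsf1 added.

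All 4 sensors and factors with substantial reads were lower in KO. Ern1, which encodes the IRE1 kinase and ribonuclease that splices Xbp1, differed most of all members that were lower. With estrogen, Ern1 had 31.6, 43.4 and 40.5 CPM in the KO libraries, against 293, 364 and 296 CPM in WT. Without estrogen, Ern1 had 32.9, 36.4 and 35.4 CPM in KO, against 414, 369 and 302 CPM in WT. Every KO library thus held less than any WT library, and on the log2 scale KO differed by -3.04 ± 0.15 (SE, edgeR adjusted p = 3.00e-08) with estrogen and by -3.37 ± 0.16 (edgeR adjusted p = 1.43e-08) without, or 8.25-fold and 10.4-fold lower. Xbp1 encodes the transcription factor made from the spliced mRNA. With estrogen, Xbp1 had 398, 494 and 433 CPM in the KO libraries, against 982, 1044 and 1034 CPM in WT. Without estrogen, Xbp1 had 364, 440.4 and 427 CPM in KO, against 1020.4, 1079 and 1057 CPM in WT. Groups of the 2 genotypes did not overlap, with log2 fold changes of -1.21 ± 0.099 (edgeR adjusted p = 1.06e-06) and -1.36 ± 0.100 (edgeR adjusted p = 4.09e-07). Counts per gene do not separate its spliced from its unspliced mRNA. Eif2ak3 encodes PERK, the eIF2 kinase of the ER. With estrogen, Eif2ak3 had 26.6, 31.4 and 32.4 CPM in the KO libraries, against 75.9, 76.3 and 76.1 CPM in WT. Without estrogen, Eif2ak3 had 26.6, 27.5 and 27.5 CPM in KO, against 77.6, 82.8 and 68.0 CPM in WT. KO libraries were all lower, by 2.53-fold with estrogen (edgeR adjusted p = 1.83e-07) and 2.80-fold without (edgeR adjusted p = 7.68e-08). Of its exon bases, 8.05% overlap another annotated gene. Atf6 encodes the membrane-bound transcription factor that is cleaved on ER stress. With estrogen, Atf6 had 88.5, 94.0 and 95.6 CPM in the KO libraries, against 168, 165 and 176 CPM in WT. Without estrogen, Atf6 had 86.5, 89.8 and 87.9 CPM in KO, against 167, 201 and 149.5 CPM in WT. It too was lower in all 6 KO libraries, by 1.83-fold (edgeR adjusted p = 8.45e-06) and 1.96-fold (edgeR adjusted p = 3.36e-06).

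Ern2, the paralog of Ern1 known from mucus-secreting epithelia of the gut and airways, went the other way at a very low level. It had 64, 36 and 56 reads in the 3 KO libraries with estrogen against 2, 0 and 0 in WT, and 46, 16 and 21 reads in KO without estrogen against 0, 0 and 0 in WT. All 6 KO libraries held reads and 1 of 6 WT libraries did. With estrogen the ratio of the group levels, from 156 reads against 2, was 63.0 (95% counting interval 17.2 to 525), and without estrogen, from 83 reads against 0, Ern2 was at least 28.5-fold higher in KO when WT was set to a floor of 3 reads over the group. The interval and floor cover counting error only and take each read as separate. Mates were counted singly, so 2 reads can come from 1 fragment. The interval may thus be too narrow and the bound too high. Its test passed in both treatments (edgeR adjusted p = 2.66e-04 and 2.63e-04), but its mean level in KO was 0.469 ± 0.125 and 0.324 ± 0.200 CPM.

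**Figure D2:**
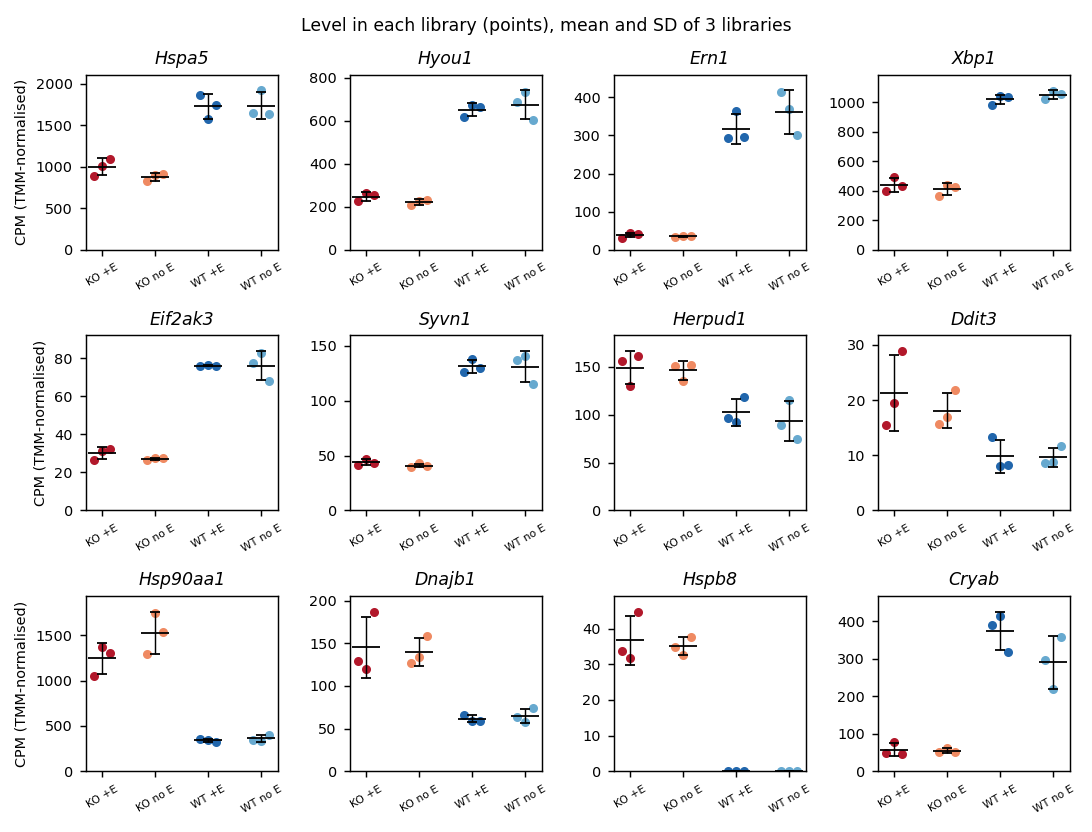
Level (CPM, vertical axis from 0) of 12 members in each library (points) with the mean and SD of 3 libraries (lines), for KO with estrogen, KO without, WT with and WT without. Hspa5, Hyou1, Ern1, Xbp1, Eif2ak3, Syvn1 and Cryab are lower in every KO library, Herpud1, Ddit3, Hsp90aa1, Dnajb1 and Hspb8 are higher, and the 2 treatments of a genotype lie close together.

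The factors made by these branches bind short promoter sequences, which are shown here because the genes that carry them did not all differ between genotypes in the same way. Promoters were read from RefSeq for build GRCm38.p6, from 250 bases before to 50 bases after the start site, and 33 of the 42 members had an entry. The promoters of a chromosome were left out before the search, so all shares are of the promoters searched. The ER stress element, which ATF6 and XBP1 are known to act on, was searched as CCAAT, a gap of 9 bases and CCACG, on both strands. It was found in 39 of 32851 promoters (0.119%) and in those of 9 members, namely Hspa5, Hsp90b1, Calr, Canx, Pdia6, Dnajc3, Creld2, Syvn1 and Derl3. Of these 9, 7 were lower in KO, 0 were higher, and Creld2 and Derl3 were not called in both treatments. Among the 24 searched members without a match, 13 were lower, 8 higher and 3 not called. The ER lumen genes searched without a match, Pdia3, Pdia4, Dnajb9, Dnajb11 and Sdf2l1, were all lower too. The 8 higher members were integrated stress, ERAD and heat shock genes, so members with and without a match also differ in role. The matches are printed 5′ to 3′ in the orientation of the gene with 10 bases on either side, and capitals mark the fixed letters of the motif.
Hspa5 (chr2:34772015-34772053, plus strand): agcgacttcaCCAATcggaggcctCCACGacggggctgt
Hsp90b1 (chr10:86705628-86705666, minus strand): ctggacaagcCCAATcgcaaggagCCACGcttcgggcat
Hsp90b1 (chr10:86705523-86705561, minus strand): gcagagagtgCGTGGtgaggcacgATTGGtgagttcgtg
Calr (chr8:84847065-84847103, minus strand): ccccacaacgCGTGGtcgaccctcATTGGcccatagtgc
Canx (chr11:50325790-50325828, minus strand): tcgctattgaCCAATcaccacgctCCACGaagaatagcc
Pdia6 (chr12:17266481-17266519, plus strand): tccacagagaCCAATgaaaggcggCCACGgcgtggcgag
Dnajc3 (chr14:118937817-118937855, plus strand): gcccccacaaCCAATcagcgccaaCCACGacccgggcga
Creld2 (chr15:88819510-88819548, plus strand): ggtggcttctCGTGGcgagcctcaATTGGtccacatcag
Syvn1 (chr19:6046522-6046560, plus strand): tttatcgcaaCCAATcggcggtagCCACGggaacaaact
Derl3 (chr10:75893232-75893270, plus strand): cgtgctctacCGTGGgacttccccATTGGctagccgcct
They share the CCAAT and CCACG ends, or CGTGG and ATTGG where the match is on the opposite strand, whereas the 9 bases between differ from gene to gene. In the numbering from the start site they lie between base -212 (Hsp90b1) and base -26 (Syvn1). The proximal promoter of Hspa5 is given in full, on chr2:34771840-34772089 of the plus strand, with the match in capitals, as the textbook ER stress promoter.
Hspa5 promoter: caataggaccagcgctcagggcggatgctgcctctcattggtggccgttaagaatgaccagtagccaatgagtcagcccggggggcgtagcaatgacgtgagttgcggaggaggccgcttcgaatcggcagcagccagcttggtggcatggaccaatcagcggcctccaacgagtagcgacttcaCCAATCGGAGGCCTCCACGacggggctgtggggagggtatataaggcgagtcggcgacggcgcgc

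A shorter second form, ATTGG, a gap of 1 base and CCACG, was found in 12 promoters (0.0365%), those of Dnajb11 and Herpud1 among them. The C/EBP-ATF element on which ATF4 is known to act, searched as TGATG, a gap of 1 base and AA, stood in 1304 promoters (3.97%) and in those of Trib3, Chac1, Asns and Herpud1. These 4 genes did not move together, with Asns and Herpud1 higher in KO, Trib3 lower and Chac1 not called. The sites upstream of the start are shown with the fixed letters in capitals, which read TT and CATCA where the match is on the opposite strand.
Herpud1 (chr8:94386367-94386397, plus strand): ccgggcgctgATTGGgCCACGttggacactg
Herpud1 (chr8:94386307-94386334, plus strand): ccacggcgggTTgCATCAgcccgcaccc
Asns (chr6:7693215-7693242, minus strand): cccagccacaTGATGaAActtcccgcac
Chac1 (chr2:119351039-119351066, plus strand): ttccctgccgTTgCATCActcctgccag
The first of these is the second form of the ER stress element and the other 3 are C/EBP-ATF elements, so that Herpud1 holds a match to both. The heat shock element, searched as GAA, TTC and GAA with gaps of 2 bases, was in 198 promoters (0.603%) and, of the members, in that of Hsph1. The core of the UPR element, TGACGTGG, was in 222 promoters (0.676%) and the estrogen response element, GGTCA, a gap of 3 bases and TGACC, in 23 (0.07%), in both cases in 0 members. No match of any motif overlapped a match of another in a member promoter. A match is a description of letters and not a bound site, and a missing match says only that these letters are not in this window.

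All ER lumen genes but Creld2 were called lower in KO. Dnajb9, a cochaperone of the HSP70 chaperone BiP, was the member of this role that differed most. With estrogen, Dnajb9 had 48.0, 64.0 and 73.7 CPM in the KO libraries, against 168, 184 and 204 CPM in WT. Without estrogen, Dnajb9 had 42.3, 53.6 and 58.3 CPM in KO, against 181, 218 and 150.4 CPM in WT. KO and WT libraries were fully apart, and Dnajb9 was 2.99-fold lower in KO with estrogen (log2 fold change -1.58 ± 0.18, edgeR adjusted p = 1.68e-05) and 3.56-fold lower without (-1.83 ± 0.18, edgeR adjusted p = 5.25e-06). Hyou1 encodes the large HSP70-related chaperone that exchanges nucleotide on BiP. With estrogen, Hyou1 had 225, 264 and 253 CPM in the KO libraries, against 618, 675 and 665 CPM in WT. Without estrogen, Hyou1 had 207, 227 and 231 CPM in KO, against 687, 736 and 605 CPM in WT. Its KO libraries all lay under its WT libraries, with folds of 2.64 (edgeR adjusted p = 2.57e-07) and 3.05 (edgeR adjusted p = 8.29e-08) lower. Dnajc3, a BiP cochaperone also known as an inhibitor of eIF2 kinases, carries an ER stress element shown above. With estrogen, Dnajc3 had 148, 194 and 177 CPM in the KO libraries, against 395, 399.6 and 453 CPM in WT. Without estrogen, Dnajc3 had 137, 172 and 164 CPM in KO, against 375, 472 and 321 CPM in WT. Again no KO library reached a WT library, and the level was 2.40-fold (edgeR adjusted p = 1.96e-05) and 2.47-fold (edgeR adjusted p = 1.45e-05) lower in KO.

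The other 10 genes of this role called lower each had their 6 KO libraries below their 6 WT libraries. Hspa5, which encodes BiP itself, averaged 999.5 ± 102 CPM in KO against 1724 ± 145 CPM in WT with estrogen, and 877 ± 47.3 against 1732 ± 159.6 CPM without (n = 3 each), 1.72-fold and 1.98-fold lower in KO. Hsp90b1, the HSP90 of the ER, was 1.66-fold and 1.82-fold lower with and without estrogen, and 15.7% of its exon bases overlap other annotated genes. The lectin chaperones of glycoproteins were lower too, Calr 2.10-fold and 2.30-fold and Canx 1.82-fold and 2.05-fold. Of the disulfide isomerases, Pdia3, the partner of the lectin chaperones, was 1.75-fold and 1.88-fold lower, Pdia4 1.92-fold and 2.05-fold, and Pdia6 1.70-fold and 1.94-fold. Manf, a secreted factor that is induced by ER stress, was 2.31-fold and 2.49-fold lower, with 9.25% of its exon bases overlapped by other genes. Dnajb11 and Sdf2l1, which act together on BiP clients, were lower by 1.48-fold and 1.52-fold and by 1.70-fold and 1.79-fold. The largest adjusted p among these 10 genes in either treatment was 2.25e-04 (edgeR), for Sdf2l1 with estrogen.

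Creld2, an ER protein induced by ER stress, was the exception in this role. With estrogen, Creld2 had 55.0, 62.6 and 55.0 CPM in the KO libraries, against 77.1, 61.2 and 67.2 CPM in WT. Without estrogen, Creld2 had 54.4, 64.2 and 59.0 CPM in KO, against 60.1, 68.5 and 63.6 CPM in WT. Libraries of the genotypes overlapped in both treatments. Without estrogen the log2 fold change was -0.11 ± 0.098 (edgeR adjusted p = 0.314) and took the value 0.11 when libraries were scaled by size alone. With estrogen it was -0.25 ± 0.098 (edgeR adjusted p = 0.0378), a call lost without WT replicate 1 (0.163), WT replicate 3 (0.0599), KO replicate 1 (0.104) or KO replicate 3 (0.131), all with estrogen, or without KO replicate 3 that had no estrogen (0.0503), values being edgeR adjusted p. By DESeq2 it did not pass either (DESeq2 adjusted p = 0.117).

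Summed over its 14 genes, the ER lumen role stood at 5949 ± 387 CPM in KO against 11129.5 ± 577 CPM in WT with estrogen, a ratio of 0.535. Without estrogen the sums were 5295 ± 188 CPM in KO against 10948 ± 1197 CPM in WT, a ratio of 0.484. For the 5 sensors and factors the ratio was 0.381 with and 0.338 without estrogen. Sums of the cytosolic heat shock genes had a ratio of 1.08 with and 1.15 without estrogen. With estrogen their range in KO, 4694 to 5349 CPM, overlapped that in WT, 4521 to 4966 CPM. Without estrogen the ranges barely overlapped, at 5054 to 5747 CPM in KO against 4405 to 5057 CPM in WT. Such sums are a description and follow the most abundant genes of a role.

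**Figure D3:**
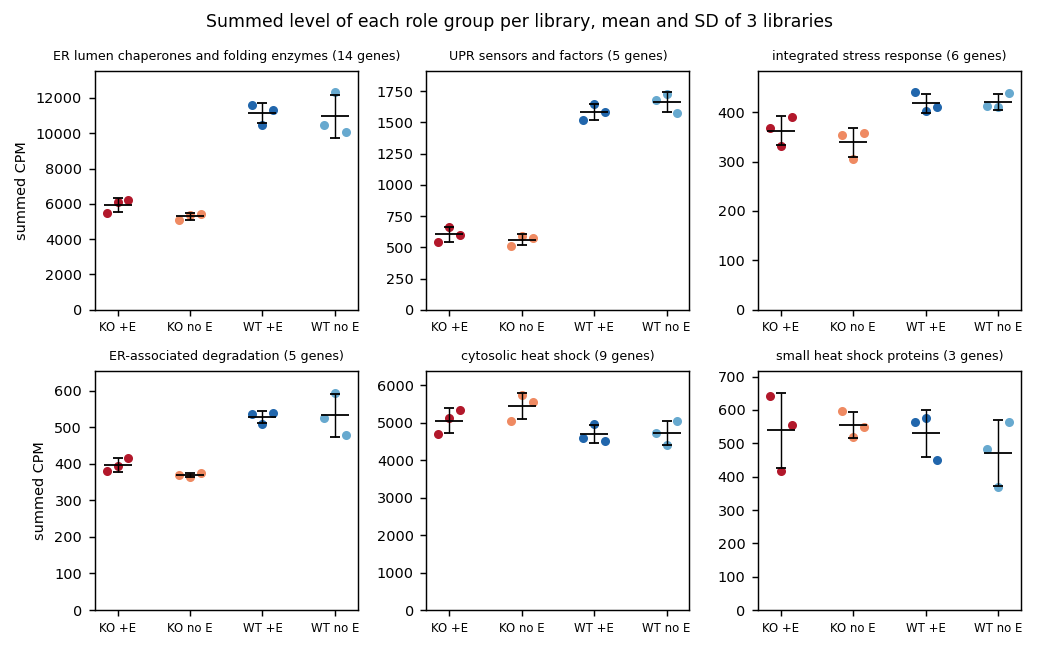
Summed level of each role (CPM, vertical axes from 0) in every library (points), with the mean and SD of 3 libraries (lines), for KO with estrogen, KO without, WT with and WT without. The ER lumen sums of KO, 5085 to 6227 CPM, lie below those of WT, 10081 to 12314 CPM, while the sums of the small heat shock proteins overlap between genotypes.

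ERAD returns misfolded proteins from the ER to the cytosol for degradation, and its core ligase was lower in KO. Syvn1 encodes the membrane ubiquitin ligase HRD1 and carries an ER stress element. With estrogen, Syvn1 had 41.5, 46.7 and 43.1 CPM in the KO libraries, against 126, 137 and 129.9 CPM in WT. Without estrogen, Syvn1 had 39.5, 42.9 and 40.2 CPM in KO, against 137, 141 and 115 CPM in WT. Syvn1 was lower in every KO library, 2.99-fold with estrogen (log2 fold change -1.58 ± 0.084, edgeR adjusted p = 4.40e-08) and 3.20-fold without (-1.68 ± 0.084, edgeR adjusted p = 2.52e-08). Sel1l encodes the adaptor that stabilises HRD1. With estrogen, Sel1l had 77.8, 97.7 and 86.7 CPM in the KO libraries, against 148, 144 and 148 CPM in WT. Without estrogen, Sel1l had 80.7, 87.3 and 81.3 CPM in KO, against 154, 176 and 135 CPM in WT. Here too the genotypes did not overlap, with 1.68-fold (edgeR adjusted p = 5.44e-05) and 1.86-fold (edgeR adjusted p = 1.22e-05) lower levels in KO. Edem1 encodes a protein that hands mannose-trimmed glycoproteins to this pathway. With estrogen, Edem1 had 103, 117 and 125 CPM in the KO libraries, against 163, 134 and 139.8 CPM in WT. Without estrogen, Edem1 had 95.9, 98.2 and 100.4 CPM in KO, against 142, 161 and 152 CPM in WT. All KO values were below the WT values by a narrow margin with estrogen, where the log2 fold change of -0.34 ± 0.091 (edgeR adjusted p = 0.00582) became -0.16 (edgeR adjusted p = 0.133) when libraries were scaled by size alone. Without estrogen it was -0.63 ± 0.091 (edgeR adjusted p = 8.78e-05). Herpud1, a membrane protein of the same ligase complex, was the ERAD gene that was higher in KO. With estrogen, Herpud1 had 156, 129.7 and 162 CPM in the KO libraries, against 96.7, 92.3 and 118 CPM in WT. Without estrogen, Herpud1 had 151, 135 and 152 CPM in KO, against 89.5, 116 and 74.5 CPM in WT. Its KO libraries lay above all WT libraries, by 1.46-fold (edgeR adjusted p = 0.00842) and 1.57-fold (edgeR adjusted p = 0.00286). Derl3, a channel component of ERAD, was sparse at 1.37 ± 0.805 CPM in KO against 1.71 ± 0.385 CPM in WT with estrogen and 1.14 ± 0.244 against 1.59 ± 0.486 CPM without, and it did not pass (edgeR adjusted p = 0.475 and 0.28).

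Genes of the integrated stress response moved in different directions. Atf4 encodes the transcription factor of this response, which is controlled mainly at translation. With estrogen, Atf4 had 200.1, 172 and 201 CPM in the KO libraries, against 242, 234 and 244 CPM in WT. Without estrogen, Atf4 had 184, 153 and 188 CPM in KO, against 234, 239.6 and 238 CPM in WT. KO was lower throughout, with log2 fold changes of -0.33 ± 0.089 (edgeR adjusted p = 0.00616) and -0.44 ± 0.089 (edgeR adjusted p = 0.00102), the first of which became -0.15 (edgeR adjusted p = 0.126) with library size alone. Ddit3 encodes CHOP, a transcription factor downstream of ATF4. With estrogen, Ddit3 had 15.4, 19.5 and 28.8 CPM in the KO libraries, against 13.2, 7.98 and 8.19 CPM in WT. Without estrogen, Ddit3 had 15.6, 16.9 and 21.7 CPM in KO, against 8.51, 8.69 and 11.6 CPM in WT. Despite the wide spread over the KO libraries all of them were above all WT libraries, 2.17-fold with estrogen (log2 fold change 1.12 ± 0.26, edgeR adjusted p = 0.00281) and 1.88-fold without (0.91 ± 0.26, edgeR adjusted p = 0.00881). Trib3, a pseudokinase induced by ATF4 and CHOP, went the other way. With estrogen, Trib3 had 7.20, 7.33 and 6.32 CPM in the KO libraries, against 15.1, 11.8 and 13.6 CPM in WT. Without estrogen, Trib3 had 6.38, 5.00 and 5.52 CPM in KO, against 14.1, 13.2 and 17.0 CPM in WT. It was lower in all KO libraries, 1.94-fold (edgeR adjusted p = 1.02e-04) and 2.62-fold (edgeR adjusted p = 5.75e-06). Ppp1r15a encodes GADD34, the stress-induced subunit of the eIF2 phosphatase. With estrogen, Ppp1r15a had 57.5, 71.0 and 81.0 CPM in the KO libraries, against 113, 105 and 102 CPM in WT. Without estrogen, Ppp1r15a had 59.4, 74.6 and 73.9 CPM in KO, against 107, 96.0 and 118 CPM in WT. Its genotypes were apart, with KO 1.53-fold (edgeR adjusted p = 0.00143) and 1.54-fold (edgeR adjusted p = 0.00116) lower.

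Asns encodes asparagine synthetase, a target of ATF4. With estrogen, Asns had 79.6, 54.8 and 66.1 CPM in the KO libraries, against 48.4, 42.6 and 42.4 CPM in WT. Without estrogen, Asns had 81.0, 49.4 and 61.4 CPM in KO, against 44.0, 48.9 and 46.4 CPM in WT. The lowest KO library without estrogen stood just above the highest WT library, and the log2 fold change was 0.59 ± 0.17 (edgeR adjusted p = 0.00937) with estrogen and 0.46 ± 0.17 (edgeR adjusted p = 0.0304) without. The call without estrogen was lost when untreated WT replicate 1 was left out (edgeR adjusted p = 0.0866). It was also lost without untreated WT replicate 3 (edgeR adjusted p = 0.0650) or untreated KO replicate 1 (edgeR adjusted p = 0.149). Chac1 encodes an enzyme that breaks down glutathione and is a target of the same branch. With estrogen, Chac1 had 7.53, 7.39 and 5.94 CPM in the KO libraries, against 8.10, 2.44 and 1.15 CPM in WT. Without estrogen, Chac1 had 7.71, 6.08 and 6.90 CPM in KO, against 3.70, 3.36 and 9.35 CPM in WT. The WT libraries were scattered over the range of the KO libraries and beyond, and Chac1 did not pass in either treatment (edgeR adjusted p = 0.228 and 0.624). Without WT replicate 1 with estrogen, its highest WT library in that treatment, the log2 fold change with estrogen was 1.95 (edgeR adjusted p = 0.00407). Leaving out the highest untreated WT library, replicate 3, gave 0.97 without estrogen, which did not pass (edgeR adjusted p = 0.185).

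Cytosolic chaperones did not follow those of the ER. Hsf1, which encodes the master factor of the heat shock response, was close to level. With estrogen, Hsf1 had 39.6, 43.4 and 44.0 CPM in the KO libraries, against 40.1, 44.6 and 39.8 CPM in WT. Without estrogen, Hsf1 had 39.5, 42.6 and 42.7 CPM in KO, against 41.0, 38.2 and 41.3 CPM in WT. Libraries of both genotypes overlapped, with log2 fold changes of 0.03 ± 0.071 (edgeR adjusted p = 0.736) and 0.05 ± 0.071 (edgeR adjusted p = 0.523), while library size alone gave 0.21 (edgeR adjusted p = 0.016) and 0.28 (edgeR adjusted p = 0.00357). Hsp90aa1 encodes the inducible form of cytosolic HSP90 and had the largest difference in this role. With estrogen, Hsp90aa1 had 1053, 1373 and 1307 CPM in the KO libraries, against 360.1, 342 and 325 CPM in WT. Without estrogen, Hsp90aa1 had 1289.7, 1749 and 1533 CPM in KO, against 349, 335 and 406 CPM in WT. Every KO library exceeded every WT library, 3.63-fold with estrogen (log2 fold change 1.86 ± 0.14, edgeR adjusted p = 4.89e-07) and 4.20-fold without (2.07 ± 0.14, edgeR adjusted p = 2.03e-07). Of its 100-base stretches 38% also occur in other annotated genes, so its level is uncertain because reads that mapped to several places were not counted. Dnajb1 encodes HSP40, which delivers clients to HSP70. With estrogen, Dnajb1 had 129, 119.7 and 186 CPM in the KO libraries, against 66.0, 59.3 and 59.4 CPM in WT. Without estrogen, Dnajb1 had 126, 134 and 158 CPM in KO, against 63.2, 57.3 and 74.0 CPM in WT. KO values were all higher, 2.36-fold (edgeR adjusted p = 4.16e-05) and 2.15-fold (edgeR adjusted p = 9.23e-05). Bag3 encodes a cochaperone of HSP70 that works with small heat shock proteins. With estrogen, Bag3 had 65.7, 52.2 and 61.9 CPM in the KO libraries, against 35.9, 31.9 and 31.9 CPM in WT. Without estrogen, Bag3 had 65.2, 52.9 and 55.3 CPM in KO, against 34.8, 34.7 and 33.2 CPM in WT. No library of KO fell among those of WT, and Bag3 was 1.80-fold (edgeR adjusted p = 1.89e-05) and 1.69-fold (edgeR adjusted p = 4.45e-05) higher in KO.

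The constitutive cytosolic chaperones differed little. Hspa8 encodes the constitutive HSP70. With estrogen, Hspa8 had 1367, 1457 and 1499 CPM in the KO libraries, against 1661, 1971 and 1719 CPM in WT. Without estrogen, Hspa8 had 1418, 1546 and 1528 CPM in KO, against 1781, 1666 and 1851 CPM in WT. KO libraries were below WT libraries, by log2 fold changes of -0.31 ± 0.092 (edgeR adjusted p = 0.0111) and -0.24 ± 0.092 (edgeR adjusted p = 0.0368). Hsp90ab1 encodes the constitutive HSP90. With estrogen, Hsp90ab1 had 1808, 1862 and 1992 CPM in the KO libraries, against 2255, 2303 and 2176 CPM in WT. Without estrogen, Hsp90ab1 had 1894, 2002 and 1982 CPM in KO, against 2246, 2094 and 2459 CPM in WT. Its genotypes were apart by a narrow margin, with -0.25 ± 0.088 (edgeR adjusted p = 0.0238) and -0.21 ± 0.088 (edgeR adjusted p = 0.0496). Of the 100-base stretches of Hspa8 28.2% also occur in other annotated genes and 6.09% of its exon bases overlap another, so its level is uncertain as well. Neither call was firm, since the call of Hspa8 in both treatments was lost without untreated WT replicate 1 or 3, treated WT replicate 2 or any single untreated KO library, and that of Hsp90ab1 without any single library other than untreated WT replicate 2 or treated KO replicate 2. With library size alone the log2 fold change of Hsp90ab1 without estrogen was 0.016. The inducible HSP70 genes Hspa1a and Hspa1b are near copies, sharing 48.6% and 49.9% of their 100-base stretches with other genes, so reads that fit both were not counted and their levels are uncertain. Hspa1b was 1.63-fold (edgeR adjusted p = 1.97e-04) and 1.34-fold (edgeR adjusted p = 0.0062) higher in KO. Hspa1a differed on the log2 scale by -0.16 ± 0.11 (edgeR adjusted p = 0.227) with estrogen, 0.024 with library size alone, and was 1.50-fold lower in KO without estrogen (edgeR adjusted p = 6.83e-04). Hsph1, an HSP110 that acts on HSP70 and the member with a heat shock element, averaged 86.6 ± 12.4 CPM in KO against 80.1 ± 22.2 CPM in WT with estrogen and did not pass in either treatment (edgeR adjusted p = 0.605 and 0.419).

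The small heat shock proteins, which hold unfolded proteins without using ATP, held the largest difference of the set. Hspb8, the partner of BAG3, was close to absent in WT. It had 3914, 3534 and 4698 reads in KO against 6, 16 and 16 in WT with estrogen, and 2908, 2855 and 3351 in KO against 2, 4 and 2 in WT without. That was 33.7, 31.9 and 44.6 CPM in KO against 0.0617, 0.194 and 0.180 CPM in WT with estrogen and 35.0, 32.6 and 37.7 against 0.0255, 0.0404 and 0.0232 CPM without. Every KO library held at least 2855 reads and no WT library more than 16. The log2 fold change was 8.0 ± 0.29 (edgeR adjusted p = 3.99e-09) with and 10.12 ± 0.34 (edgeR adjusted p = 2.37e-09) without estrogen. The WT level of Hspb8 rested on 38 reads over the group with and 8 without estrogen, and mates were counted singly. The SE may thus be too small, and the size of the fold is uncertain. Hspb1 encodes HSP27. With estrogen, Hspb1 had 559, 308 and 464 CPM in the KO libraries, against 175, 159.5 and 130.4 CPM in WT. Without estrogen, Hspb1 had 509, 424 and 459 CPM in KO, against 185, 151 and 206 CPM in WT. KO libraries were all higher, 2.87-fold (edgeR adjusted p = 5.13e-05) and 2.57-fold (edgeR adjusted p = 1.10e-04), and 44% of the 100-base stretches of Hspb1 also occur in its pseudogene Hsp25-ps1. Cryab encodes alpha B-crystallin. With estrogen, Cryab had 49.4, 77.2 and 46.9 CPM in the KO libraries, against 389, 415 and 319 CPM in WT. Without estrogen, Cryab had 52.9, 62.6 and 51.3 CPM in KO, against 296, 218 and 358 CPM in WT. All KO libraries were lower, 6.47-fold (log2 fold change -2.69 ± 0.23, edgeR adjusted p = 1.48e-06) and 5.23-fold (-2.39 ± 0.23, edgeR adjusted p = 3.15e-06). Its neighbour Hspb2 overlaps 17% of the Cryab exon bases.

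Estrogen was compared with no estrogen within each genotype to ask whether the hormone moved these genes. edgeR called 0 of 42 members in KO, 0 in WT and 0 for the interaction of genotype and estrogen, beside 0% of all genes in each, and at an unadjusted p under 0.05 there were 2, 2 and 3 members among 411, 883 and 726 genes. DESeq2 called 20, 63 and 22 genes, among them 0, 1 and 0 members. The member called by DESeq2 was Hspb8 in WT, with the reads given above, at 2.22 on the log2 scale (DESeq2 adjusted p = 0.0437), and edgeR gave 2.19 ± 0.50 (edgeR adjusted p = 0.568). Without WT replicate 1 with estrogen, edgeR called it as well (2.57, edgeR adjusted p = 0.0248), and its highest WT level was 0.194 CPM. In KO, log2 fold changes for estrogen of the 42 members ran from -0.29 to 0.53. Pdia6 at 0.24 ± 0.099 and Edem1 at 0.23 ± 0.091 were the members with an unadjusted p under 0.05 there (edgeR adjusted p = 1 for each).

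The KO replicate numbers were also taken as pairs, an assumption drawn from these data that the labels do not state. This left the count of calls in KO at 0 members and 0 genes. At an unadjusted p under 0.05 there were then 4 members among 668 genes (edgeR, replicate number as a block), and every member had an adjusted p of 1. The direction was shared by most ER lumen genes, of which 12 of 14 were higher with estrogen in all 3 KO pairs. These genes varied together, with a median correlation of 0.62 over their 91 gene pairs (deviations from group means, 12 libraries). They are therefore not separate observations of estrogen. Hspa5 had 892, 1012 and 1095 CPM in KO replicates 1, 2 and 3 with estrogen, against 823, 896 and 911 CPM in the same replicates without. The ER lumen sums were 5507, 6114 and 6227 CPM with estrogen, against 5085, 5355 and 5445 CPM without. Each treated library was thus above its untreated partner, by a median log2 fold change of 0.16 over the 14 genes in the paired fit, while Dnajb11 was higher in 2 pairs and Creld2 in 1. Of all 42 members 22 were higher in all 3 pairs and 3 lower, beside 16.9% and 19.6% of all genes tested. The treated KO libraries were also the deeper ones, at 104.7 ± 3.48 against 79.4 ± 3.82 (SD, n = 3; in 1e+06 reads), and the part of depth was not tested.

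**Figure D4:**
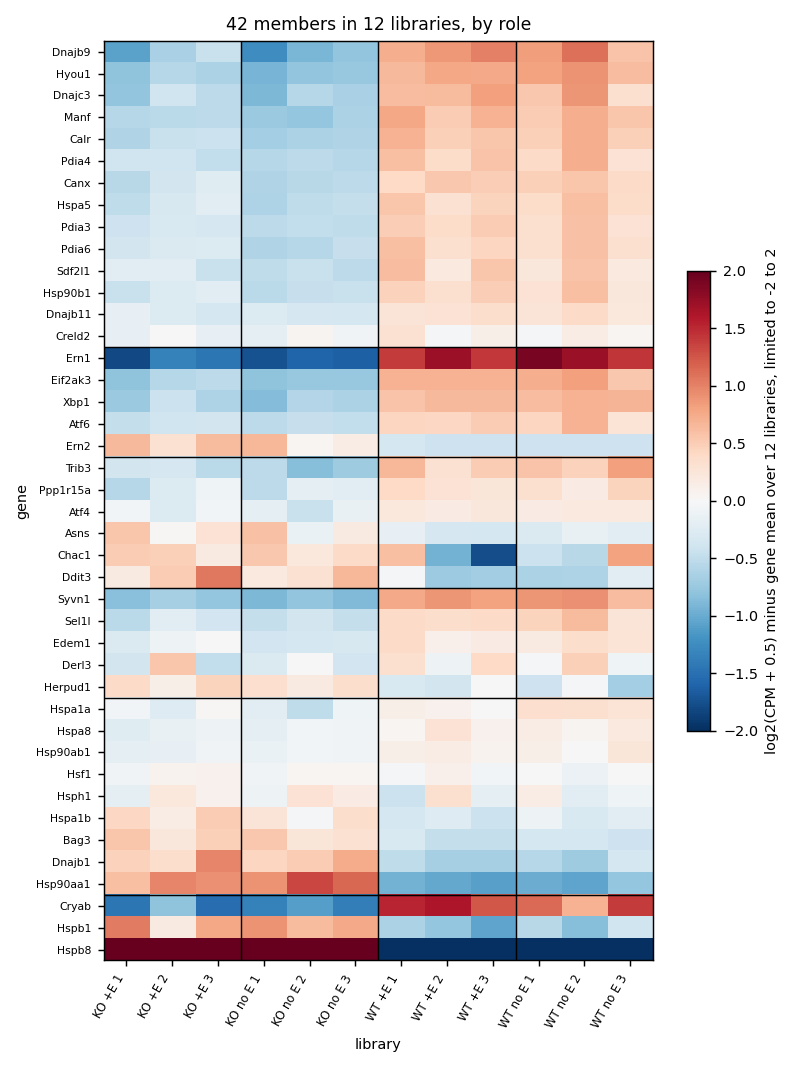
Level of the 42 members (rows, by role) in 12 libraries (columns), as log2(CPM + 0.5) minus the mean of the gene over the 12 libraries, with colours limited to -2 and 2. KO columns are blue (below the mean) for 13 of the 14 ER lumen genes in the top block and WT columns red, and within untreated WT the column of replicate 2 is the reddest of its group in that block.

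Within groups, many ER lumen genes shared the order of the libraries, as the map of levels by library shows. Among the untreated WT libraries replicate 2 was the highest for 14 of 14 ER lumen genes and replicate 3 the lowest for 12. The sums were 10449.8, 12314.0 and 10080.8 CPM in replicates 1, 2 and 3. Over all 42 members untreated WT replicate 2 was the highest for 25 and the lowest for 12. It was also the deepest library of its group, at 106.3 against 84.3 and 92.4 (in 1e+06 reads). The part of depth was not tested. Untreated KO replicate 1 was the lowest of its group for 11 of the 14 and treated KO replicate 1 for 10. Cytosolic heat shock genes ran differently in untreated WT, where replicate 2 was the lowest for 7 of 9 and the highest for 0. These are counts over genes that share libraries and scaling, given as a description, and the order was not counted over all genes. The ER lumen sums of KO, up to 6227 CPM, nonetheless stayed below the lowest WT sum.

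Genes of the same pathways outside the 42 were counted by list. These lists were also chosen with earlier results of these data known, and their shares are a description. Of 25 tested genes for other ER folding steps, 19 were lower in KO and 2 higher. The prolyl isomerase Fkbp11 was 18.0-fold and 20.7-fold lower with and without estrogen, and the disulfide reductase Dnajc10 1.51-fold and 1.64-fold higher. Fkbp11 differed most of this list, whose median log2 fold change was -0.83 with and -0.78 without estrogen. Of 31 genes of the translocon, glycosylation and ER export 29 were lower and 0 higher, with the signal peptidase subunit Sec11a 3.06-fold and 3.27-fold lower. Of 21 other ERAD genes 18 were lower and 1 higher, with Edem2, a relative of Edem1, 2.97-fold and 2.97-fold lower. Of 29 other ATF4 and integrated stress genes 12 were higher and 6 lower, with a median log2 fold change of 0.22 with and 0.08 without estrogen. The serine synthesis enzyme Psat1 was 4.63-fold and 4.50-fold higher, and Nars was 1.38-fold and 1.46-fold lower. Of 5 eIF2 kinases and phosphatase genes 3 were lower and 1 higher, with Eif2ak4, the amino acid sensor GCN2, 1.48-fold and 1.60-fold lower. The 8 genes of CREB3-type factors, their proteases and the RNA ligase of the UPR split into 3 higher and 4 lower, with the transcription factor Creb3l2 4.35-fold and 4.63-fold lower and its relative Creb3l4 3.40-fold and 4.48-fold higher.

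Outside the ER the counts were mixed. Of 34 other cytosolic chaperones and cochaperones 15 were higher and 6 lower, with the J-domain protein Dnaja4 11.7-fold and 12.9-fold higher and the HSP110 Hspa4 2.32-fold and 2.28-fold lower. Of 8 subunits of the cytosolic chaperonin 2 were higher and 2 lower, with Cct7 1.13-fold and 1.20-fold higher and Cct3 1.23-fold and 1.22-fold lower. Of 9 mitochondrial chaperones and proteases 6 were lower and 1 higher, with the protease Lonp1 1.80-fold and 1.87-fold lower and Hspe1 1.61-fold and 1.80-fold higher. Of 13 immediate early genes, which handling of tissue can induce along with heat shock genes, 4 were higher and 3 lower, with Jun 7.77-fold and 7.23-fold higher and Egr1 2.49-fold and 2.13-fold lower in KO. Beside these stand the 34.1% of all genes higher and 30.8% lower.

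**Figure D5:**
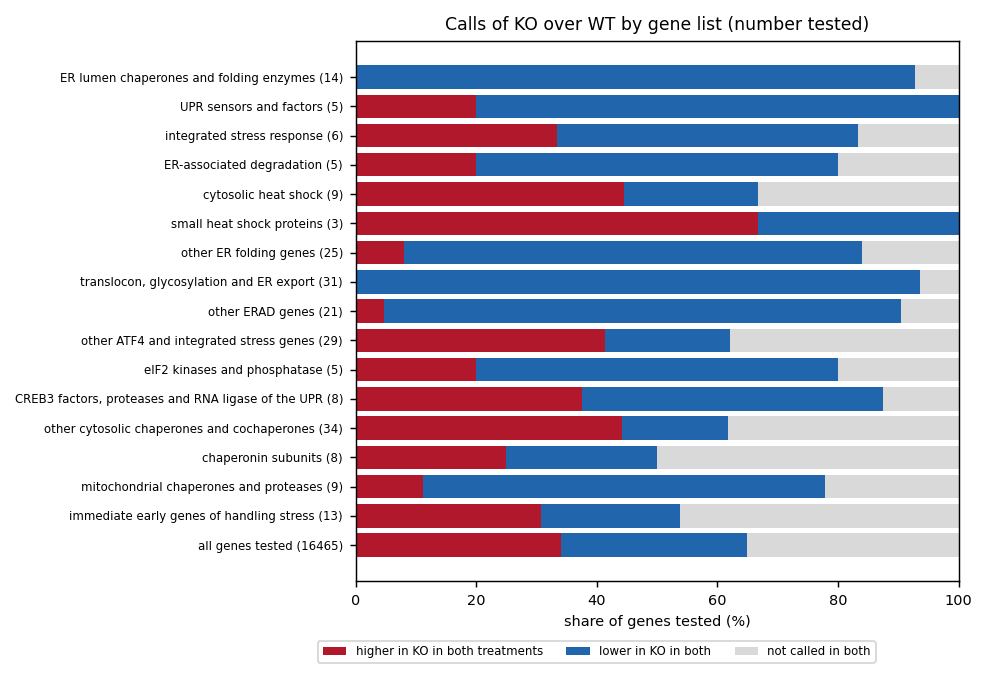
Share of tested genes (horizontal axis, %) that were higher in KO in both treatments (red), lower in both (blue) or not so called (grey), for the 6 roles of the members, 10 lists of other pathway genes and all 16465 genes tested, with the number tested in parentheses. The lists of other genes for ER folding, translocation and export, and ERAD are mostly blue, at 76% to 93.5% lower, against 30.8% of all genes. The ERAD role of the members stands at 60% lower and 20% higher.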

How the data were processed

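Bulk RNA from 12 libraries of mouse endometrial epithelial organoids was sequenced from TruSeq mRNA libraries on an Illumina NovaSeq, per the labels' protocols. The deposited files hold raw counts of reads per gene for single libraries. The authors used featureCounts 2.0.0 on exons grouped by gene symbol, per the file headers; the submitters' processing notes name version 2.0.3, STAR 2.7.10b, Trim Galore 0.6.6, FastQC 0.11.7 and build GRCm39. The recorded command counted mates singly, ignored strand, and left out reads that mapped to several places or overlapped several genes.

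Genes were kept by filterByExpr (minimum count 10, minimum total 15), scaled by TMM and fitted by the robust quasi-likelihood model of edgeR 4.0.16 in R 4.3.3, with 4 groups sharing an estimate of the spread. Tests were two-sided, with Benjamini-Hochberg adjustment over 16465 genes and a threshold of 0.05; the SE is the size of the log2 fold change over the root of F. Alternatives used DESeq2 1.42.0, other scalings and filters, the compared groups alone, replicate number as a block, and each library left out. Floors of 3 reads and exact 95% intervals cover counting error only, and take each read as separate although mates were counted singly.

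The members and gene lists were chosen with earlier results of these data known. Values in every library are given for the 3 most positive and 3 most negative called members of each role, for sensors and transcription factors, and for any member called for estrogen; Creld2 and Chac1 were added after their values were seen. Of each other list, up to 2 genes with the smallest p-values in each direction may be named. Promoters came from RefSeq tables of GRCm38.p6, not the build of the counts. Shared exon bases and 100-base stretches were taken from a GRCm38 annotation.

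Replicates of a group differed by more than counting error, so none was counted as a duplicate. Whether replicate numbers pair libraries was checked by correlating deviations from group means over genes. Same-numbered libraries correlated by 0.57, 0.50 and 0.41 in KO, so KO numbers were taken as paired from the data. In WT the values were -0.16, -0.16 and -0.39, so WT numbers were not. Differently numbered WT libraries reached similar values, 0.46 for untreated replicate 2 with treated replicate 3 and 0.40 for untreated replicate 3 with treated replicate 1. The KO pairing is therefore an assumption that these correlations do not establish.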

Additional observations from a re-analysis of the deposited data

How the results depend on the processing

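Over 20 alternative settings, 1538 of 1594 alternative values for the members' log2 fold changes of KO over WT kept their direction and side of the threshold, 47 lost a call, 4 gained a call and 5 changed sign. Members called in both treatments ranged from 9 to 11 higher and from 22 to 26 lower, and 13 ER lumen genes were lower in all 19 alternatives that applied. With replicate number as a block, 10 members were higher and 26 lower, and no call of a member changed. Ern2 fell out of the test when at least 1 CPM in 3 libraries was asked. Changes of sign were those of Creld2 without estrogen (0.11) and Hsp90ab1 without estrogen (0.016) and Hspa1a with estrogen (0.024), all under library size alone, and those of Hsf1 and Hsph1 with estrogen when a library was left out, where values ran from -0.0028 to 0.082 and from -0.041 to 0.36. All genes called for KO against WT ran from 10067 to 11806 with estrogen and from 10205 to 11970 without. For estrogen in KO, where 0 genes were called, DESeq2 called 20 genes and leaving out a library gave 0 to 4, the 4 without untreated replicate 3. In WT, also from 0, DESeq2 called 63, the replicate block within genotype 7, and leaving out a library gave 0 to 54, the 54 without treated replicate 1 and 1 without untreated replicate 3. Members called higher in WT were 1 by DESeq2 and 0 to 1 when a library was left out. For the interaction, DESeq2 called 22, the replicate block within genotype 4, and leaving out a library gave 0 to 6, the 6 without treated WT replicate 1. Whether these shifts have a common cause was not tested. Depth limited Ern2 and, in WT, Hspb8.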
